A study of Mus musculus with 4 samples.

Results

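The cells described here were CD4+CCR7+ mouse thymocytes in which Foxp3 mRNA was detected and Il2ra mRNA was not. A cell barcode was kept when it had at least 2000 unique molecular identifiers (UMIs, each counting 1 captured mRNA molecule), at least 500 genes and at most 10% mitochondrial UMIs. Of the kept barcodes, those with at least 1 Foxp3 UMI and with Il2ra, Cd8a, Cd8b1 and Rag1 at 0 were the Foxp3+ Il2ra- cells. These cells numbered 430 of 27310 kept barcodes, with 187 of 14381 from Cgas KO thymus and 243 of 12929 from WT thymus. They were set beside 234 Foxp3+ Il2ra+ barcodes (91 Cgas KO, 143 WT) and 16880 Foxp3- Il2ra- barcodes (9113 Cgas KO, 7767 WT), both also without a Cd8a, Cd8b1 or Rag1 UMI. The cells were selected on their UMIs of Foxp3, Il2ra, Cd8a, Cd8b1 and Rag1, so levels of these 5 genes describe the choice and carry no finding.

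Regulatory T cells (Treg cells) restrain other T cells and depend on the transcription factor FOXP3. In the thymus they arise from CD4 cells that receive strong T cell receptor (TCR) signals, and 2 precursor states are known in mice. One carries CD25, the IL-2 receptor alpha chain encoded by Il2ra, without FOXP3, and the other carries FOXP3 at a low level without CD25. IL-2 family cytokines acting through STAT5 take both to the mature FOXP3+ CD25+ state, and costimulation through TNF receptor family members promotes that step. An mRNA count of 0 in a droplet does not show that the protein is absent, so Il2ra at 0 is not the same as a CD25-negative stain.

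The study asked how cGAS, the cytosolic DNA sensor encoded by Cgas, affects transcription in these thymocytes. The Cgas KO library came from Cd4Cre Cgas fl/fl mice and the WT library from Cd4Cre mice, so both genotypes carried the Cre transgene, which is driven by Cd4 regulatory elements and acts from the CD4 CD8 double-positive stage onward. Each genotype had 1 gene expression library and 1 TCR library, and the labels state neither the number nor the age of the mice. With 1 library per genotype no difference between genotypes has a replicate check, no p-value is given, and genotype cannot be told apart from library, litter or day.

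The expression libraries held 87310091 UMIs in Cgas KO and 84763106 in WT. Foxp3+ Il2ra- cells had a median of 4203 UMIs and 1906 genes in Cgas KO and 4654 UMIs and 2012 genes in WT, and 0.974% and 1.06% mitochondrial UMIs in Cgas KO and WT. Foxp3+ Il2ra+ cells were somewhat deeper, at 4574 and 5035 UMIs in Cgas KO and WT, as were Foxp3- Il2ra- cells at 4440 and 4894. Cgas itself, the targeted gene, had 3 UMIs in the Cgas KO cells and 5 in the WT cells, or 3.11 and 3.56 counts per 1000000 UMIs (CPM). These 3′ tags may lie outside the deleted part, and the labels do not say which part is floxed, so the counts check nothing. Between the libraries, 276 barcode sequences were shared, 9 of them Foxp3+ Il2ra- in 1 library, but no full set of TCR chains was.

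Within the Cgas KO library, TCR chain sets recurred in pairs. Of 12029 kept Cgas KO barcodes with both chains, 1166 (9.69%) shared their full set of alpha and beta chains with another barcode, as 583 pairs and no larger group, against 35 of 10754 (0.325%) in WT. The recurring Cgas KO barcodes had a median of 3168.5 UMIs, against 4704 in the other Cgas KO barcodes with both chains. Among Foxp3+ Il2ra- cells, 13 in Cgas KO (6.95%) and 1 in WT (0.412%) had a recurring set. Whether such pairs are sister cells or 1 cell under 2 barcodes was not tested, so results are also given without these barcodes.

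The TCR contigs tie some Foxp3+ Il2ra- barcodes to barcodes of another class. Of the 13 recurring Cgas KO cells, 10 shared their chains with a Foxp3- Il2ra- barcode, 1 with a Foxp3+ Il2ra+ barcode and 2 with a barcode that had a Cd8a, Cd8b1 or Rag1 UMI, and the WT cell shared its chains with a Foxp3- Il2ra- barcode. Foxp3- Il2ra- barcodes were 9113 of the 14381 kept Cgas KO barcodes, so most partners would be of that class in any case. The CDR3 sequences of 2 Cgas KO pairs are shown as examples of the same receptor in different classes, as read in the deposited contigs, with the codons of the first cysteine and last phenylalanine in capitals. In the first pair, a cell with 3 Foxp3 UMIs and 3677 UMIs in all shared its receptor with a Foxp3+ Il2ra+ barcode of 2 Foxp3 UMIs, 1 Il2ra UMI and 3027 UMIs in all. In the second pair, a cell with 1 Foxp3 UMI and 2779 UMIs in all shared its receptor with a Foxp3- Il2ra- barcode of 3302 UMIs. The beta chain locus lies on chromosome 6 and the alpha chain locus on chromosome 14.
First pair, beta chain, TRBV3 with TRBJ2-5: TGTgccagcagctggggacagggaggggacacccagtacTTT
First pair, alpha chain, TRAV7-4 with TRAJ40: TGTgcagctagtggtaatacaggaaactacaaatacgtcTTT
Second pair, beta chain, TRBV20 with TRBJ2-5: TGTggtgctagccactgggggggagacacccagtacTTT
Second pair, alpha chain, TRAV5-4 with TRAJ31: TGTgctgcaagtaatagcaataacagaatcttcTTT

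The CDR3 runs were 42 and 42 bases long in the first pair and 39 and 36 in the second. The third pair joined a cell with 2 Foxp3 UMIs to a barcode with 3 Foxp3 and 3 Il2ra UMIs that the rule left out of both Foxp3+ classes. A class set by 1 or a few UMIs thus differed between barcodes with the same receptor.

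As CD4+CCR7+ thymocytes, Foxp3+ Il2ra- cells had the T cell transcripts of the sort. With each barcode thinned to 2000 UMIs, Cd3e, a chain of the TCR complex, was detected in 84.0% of Cgas KO and 87.2% of WT cells (94.7% and 96.3% unthinned). Cd4 was detected in 35.8% of Cgas KO and 35.0% of WT cells (62.0% and 63.8% unthinned), and Ccr7, the chemokine receptor of the sort, in 69.5% of Cgas KO and 64.6% of WT cells (88.8% and 86.4% unthinned). CD8-type barcodes, with Cd8a and Cd8b1 UMIs and Cd4 at 0, numbered 1225 in Cgas KO and 1278 in WT and served below as a further comparison class. They came from the same CD4+CCR7+ sort, and whether they lack Foxp3 was not tested.

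Foxp3 rested on few UMIs per cell. In Cgas KO, 145 of 187 cells (77.5%) had exactly 1 Foxp3 UMI, 25 had 2, 4 had 3 and the highest had 8. In WT, 165 of 243 cells (67.9%) had exactly 1, 37 had 2, 27 had 3 and the highest had 7. Foxp3 UMIs with Il2ra at 0 were also found in CD8-type barcodes, in 12 of 1225 (0.980%, 95% exact Clopper-Pearson interval 0.507 to 1.70) in Cgas KO and 10 of 1278 (0.782%, 0.376 to 1.43) in WT. Median depths of the CD8-type barcodes were 4300 UMIs in Cgas KO and 4782 in WT, close to those of the Foxp3+ Il2ra- cells. In barcodes with 20 to fewer than 200 UMIs, which hold mostly free RNA, Foxp3 stood at 11.7 CPM in Cgas KO and 14.1 CPM in WT. Over all kept barcodes it stood at 8.48 CPM in Cgas KO and 13.1 in WT. How many of the cells with a single Foxp3 UMI carried background RNA was not tested.

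Foxp3+ Il2ra- cells made up a smaller share of kept barcodes in Cgas KO, at 1.30% (1.12 to 1.499), than in WT, at 1.88% (1.65 to 2.13), a ratio of 0.692. Among the 9642 Cgas KO and 8441 WT barcodes without a Cd8a, Cd8b1 or Rag1 UMI, the share was 1.94% (1.67 to 2.23) in Cgas KO and 2.88% (2.53 to 3.26) in WT. This WT interval lay above that of the WT CD8-type barcodes, and the lower end of this Cgas KO interval overlapped that of the Cgas KO CD8-type barcodes. For the share of all kept barcodes, the whole Cgas KO interval lay inside that of the Cgas KO CD8-type barcodes, and the WT interval lay above that of the WT CD8-type barcodes. With at least 2 Foxp3 UMIs required, the cells numbered 42 in Cgas KO and 78 in WT, or 0.292% (0.211 to 0.395) and 0.603% (0.477 to 0.752) of kept barcodes in Cgas KO and WT, a ratio of 0.484. CD8-type barcodes reached that level in 0.163% of Cgas KO and 0.156% of WT. Foxp3+ Il2ra+ cells made up 0.633% (0.510 to 0.776) of Cgas KO and 1.11% (0.933 to 1.30) of WT barcodes, a ratio of 0.572. Without recurring TCR sets the ratio for Foxp3+ Il2ra- cells was 0.702. Intervals and floors cover counting error within a library only, and a share of sorted barcodes says nothing of cell numbers in the thymus.

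**Figure D1:**
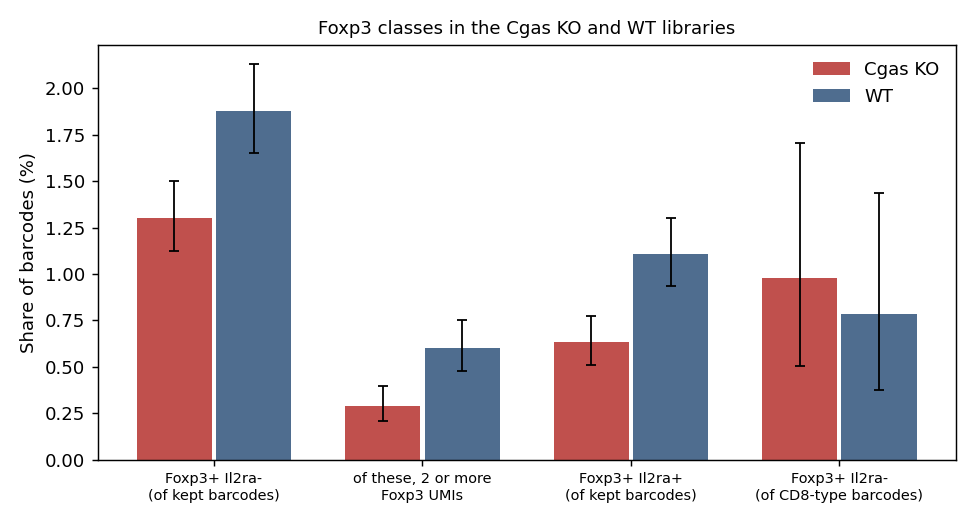
Share of kept barcodes (percent) in the Cgas KO and WT libraries that were Foxp3+ Il2ra-, Foxp3+ Il2ra- with at least 2 Foxp3 UMIs, or Foxp3+ Il2ra+, and share of CD8-type barcodes with Foxp3 and with Il2ra at 0, with 95% exact binomial intervals. Foxp3+ Il2ra- cells stand at 1.30% in Cgas KO and 1.88% in WT, and Foxp3+ Il2ra+ cells at 0.633% in Cgas KO and 1.11% in WT.

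Most Foxp3+ barcodes had no Il2ra UMI, namely 187 of 278 (67.3%) in Cgas KO and 243 of 386 (63.0%) in WT. This share was 78.8% in Cgas KO and 76.0% in WT among barcodes with 1 Foxp3 UMI, and 44.7% in Cgas KO and 46.2% in WT among those with at least 2. Il2ra was itself shallow, since 21 of the 91 Cgas KO and 46 of the 143 WT Foxp3+ Il2ra+ cells had a single Il2ra UMI and lay just across the boundary of the rule. When Foxp3+ Il2ra+ cells were thinned to 2000 UMIs, 16 of the 57 Cgas KO cells (28.1%) and 27 of the 94 WT cells (28.7%) that still had Foxp3 had lost Il2ra and would have been counted as Foxp3+ Il2ra-. Thinned likewise, 49.7% of the Cgas KO and 58.0% of the WT Foxp3+ Il2ra- cells kept a Foxp3 UMI. The lowest cells inside the depth limit had 2074 UMIs in Cgas KO and 2049 in WT, and the highest otherwise qualifying barcodes outside it had 1947 in Cgas KO and 1986 in WT. A Cd8a, Cd8b1 or Rag1 UMI excluded 65 of 252 Cgas KO (25.8%) and 79 of 322 WT (24.5%) Foxp3+ Il2ra- barcodes.

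Per cell, Foxp3+ Il2ra- cells carried an intermediate number of transcripts of the Treg signature, a list of 25 genes that leaves out Foxp3 and Il2ra. At 2000 UMIs per barcode the median was 5 such UMIs in Cgas KO and 5 in WT. Foxp3+ Il2ra+ cells had a median of 11 in Cgas KO and 10 in WT, and Foxp3- Il2ra- cells 2 in each. At least 5 signature UMIs were present in 97 of 187 Cgas KO cells (51.9%, 44.5 to 59.2) and 141 of 243 WT cells (58.0%, 51.5 to 64.3). The same held for 89.0% of Cgas KO and 88.1% of WT Foxp3+ Il2ra+ cells, and for 1823 of 9113 Cgas KO and 1682 of 7767 WT Foxp3- Il2ra- cells (21.7% in WT). CD8-type barcodes reached it in 18.8% of Cgas KO and 12.8% of WT.

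The Foxp3+ Il2ra- cells were not uniform. No signature UMI was found in 8.02% of the Cgas KO and 4.94% of the WT cells, while the highest had 32 in Cgas KO and 33 in WT. Among cells with 1 Foxp3 UMI, 46.2% in Cgas KO and 47.3% in WT had at least 5 signature UMIs, and among those with at least 2 Foxp3 UMIs, 71.4% in Cgas KO and 80.8% in WT did. Il2ra+ Foxp3- barcodes, the counterpart of the other precursor state, reached 69.7% in Cgas KO and 70.8% in WT. Of 5 Treg genes (Ikzf2, Ctla4, Tnfrsf18, Tnfrsf4 and Izumo1r) looked for in each thinned cell, none was found in 38 Cgas KO cells (20.3%) and 46 WT cells (18.9%), and all 5 in 1 Cgas KO cell and 5 WT cells. The median cell thus lay between the comparison classes in both libraries, with a tail in each direction.

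**Figure D2:**
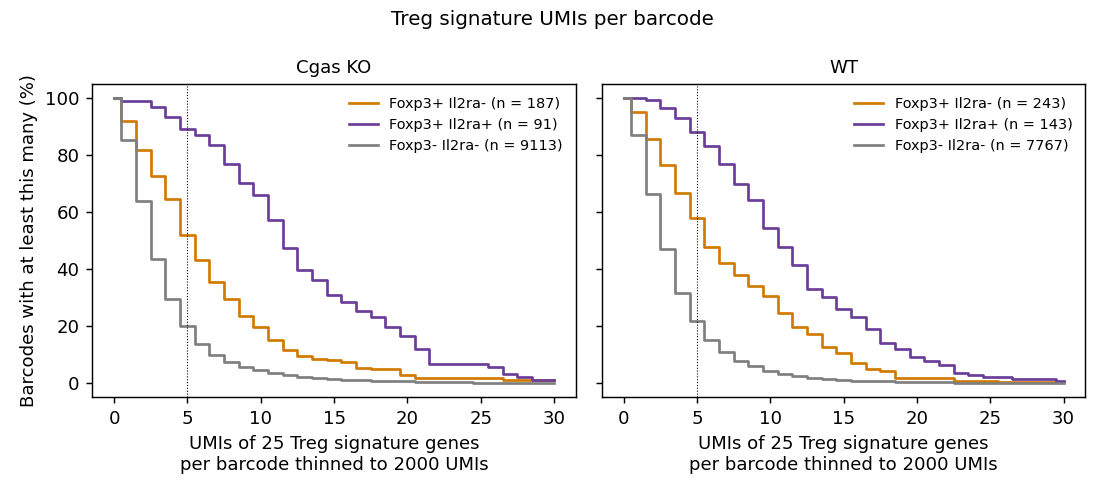
Share of barcodes (percent) with at least the number of Treg signature UMIs on the x axis, after thinning to 2000 UMIs, with 1 line per class for Cgas KO (left) and WT (right) and a dotted line at 5 UMIs. The Foxp3+ Il2ra- curve lies between those of the Foxp3+ Il2ra+ and Foxp3- Il2ra- barcodes, with medians of 5, 11 and 2 in Cgas KO and 5, 10 and 2 in WT.

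Ikzf2 and Gpr83 stood higher in cells with at least 2 Foxp3 UMIs than in those with 1 in both libraries, a split that uses a gene of the selection rule. Ikzf2, encoding the transcription factor Helios, stood at 1278 CPM in Cgas KO cells with at least 2 Foxp3 UMIs and 689 in those with 1, and at 965 and 501 CPM in the WT cells with at least 2 and with 1. Gpr83, an orphan receptor gene of Treg cells, stood at 181 CPM (129 to 247) and 36.3 (23.9 to 52.8) in the same Cgas KO cells and at 139 (107 to 178) and 50.9 (37.5 to 67.4) in the WT cells, with 95% exact Poisson intervals. Ctla4, Tnfrsf18, Tnfrsf4 and Izumo1r were likewise higher in cells with at least 2 Foxp3 UMIs in both libraries, with intervals apart. Ctla4 stood at 236 CPM (176 to 309) and 110 (87.6 to 137) in the Cgas KO cells with at least 2 and with 1. In the WT cells it stood at 244 (201 to 294) and 121 (99.7 to 145). Some other Treg genes were less even. Capg, an actin capping protein gene, stood at 58.9 CPM (31.4 to 100.7) and 64.5 (47.6 to 85.5) in the Cgas KO cells with at least 2 and with 1, and at 113 (84.6 to 149) and 75.2 (58.8 to 94.9) in the WT cells, with overlapping intervals in each. Itm2a, a gene of recently selected thymocytes, ran the other way, at 503 CPM in cells with at least 2 Foxp3 UMIs and 639.7 in those with 1 in Cgas KO, and 431 and 776 in WT. Foxp3+ Il2ra+ cells, split alike, were less even. In Cgas KO, their Ikzf2 stood at 1028 CPM (913 to 1153) with at least 2 Foxp3 UMIs and 1248 (1103 to 1406) with 1. In WT it stood at 1030 (950 to 1113) and 650 (559 to 751). Their Ctla4 stood at 344 CPM (279 to 419) and 296 (228 to 378) in Cgas KO. In WT it stood at 378 (331 to 430) and 227 (175 to 290).

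Set against Foxp3+ Il2ra+ cells, Foxp3+ Il2ra- cells had lower levels of 13 of 25 Treg signature genes, 7 of 17 IL-2 and STAT5 genes and 8 of 22 TCR-induced genes, and higher levels of Tcf7 and Satb1. Among 5605 genes that reached 100 UMIs and 20 CPM, 123 (2.19%) were at least 1.5-fold higher and 103 (1.84%) at least 1.5-fold lower in both libraries, with 1 CPM added to each value. Without recurring TCR sets the counts were 115 and 102, and the median log2 ratio over all genes tested was 0.07. Gene lists were read over genes with at least 20 UMIs, where 4.59% of 9664 genes were higher, 2.87% were lower and the median log2 ratio was 0.08.

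Of the 25 Treg signature genes, 13 were lower, 0 were higher and the median log2 ratio was -1.12. Lrrc32, whose product GARP holds latent TGF-beta on the Treg surface, stood at 16.6 CPM in Cgas KO and 15.0 in WT Foxp3+ Il2ra- cells, against 86.3 in Cgas KO and 67.4 in WT Foxp3+ Il2ra+ cells. Gpr83 stood at 69.4 CPM in Cgas KO and 79.9 in WT, against 251 and 254 in Cgas KO and WT Foxp3+ Il2ra+ cells. Ctla4, the inhibitory receptor that competes with CD28 for ligand, stood at 139 CPM in Cgas KO and 161 in WT, against 323 and 331. These 3 were lower in both libraries, with log2 ratios of -2.31 and -2.10 for Lrrc32, -1.84 and -1.66 for Gpr83, and -1.21 and -1.03 for Ctla4 in Cgas KO and WT. Ikzf2 differed less, at 824 CPM in Cgas KO and 653 in WT against 1123 and 909, with log2 ratios of -0.45 in Cgas KO and -0.48 in WT that did not reach 1.5-fold.

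Among TNF receptor genes that costimulate Treg development, Tnfrsf4 and Tnfrsf18 were lower. Tnfrsf4 (OX40) stood at 297 CPM in Cgas KO and 287 in WT Foxp3+ Il2ra- cells, against 1003 and 773 in Cgas KO and WT Foxp3+ Il2ra+ cells, and Tnfrsf18 (GITR) at 230.1 in Cgas KO and 264 in WT, against 654 and 578. In this list 4 of 13 genes were lower (Tnfrsf4, Tnfrsf18, Tnfrsf9 and the adaptor gene Traf1), 0 were higher, and the median log2 ratio was -0.27. Of 15 NF-kB genes, 2 were lower (the subunit gene Rel and the regulator gene Nfkbiz) and 0 were higher (median -0.12).

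Among 17 measured genes of the IL-2 receptor and STAT5 list, 7 were lower, 0 were higher and the median log2 ratio was -0.53. Of the 14 with at least 100 UMIs, 4 were lower and the median was -0.26. Il2rb, the shared beta chain of the IL-2 and IL-15 receptors, stood at 145 CPM in Cgas KO and 173 in WT, against 447 and 547 in Cgas KO and WT Foxp3+ Il2ra+ cells (log2 ratios -1.62 and -1.65 in Cgas KO and WT). Cish, a STAT5-induced inhibitor of cytokine signalling, stood at 68.4 CPM in Cgas KO and 74.9 in WT, against 209 and 191. Socs2, another gene of that kind, had 0 UMIs in the Cgas KO cells and 2.14 CPM in the WT cells, against 46.1 CPM in Foxp3+ Il2ra+ cells of both genotypes. The survival gene Bcl2 was also lower, at 439 CPM in Cgas KO and 463 in WT, against 974.8 and 734.

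The TCR-induced list, with 22 genes measured, had 8 lower genes, 0 higher genes and a median of -0.22. Of the 17 with at least 100 UMIs, 4 were lower and the median was -0.16. The transcription factor gene Myc stood at 49.8 CPM in Cgas KO and 65.6 in WT, against 193 and 146 in Cgas KO and WT Foxp3+ Il2ra+ cells. Dusp4, which encodes a phosphatase that dampens MAP kinase signalling, stood at 67.4 CPM in Cgas KO and 69.9 in WT, against 136 and 147. Of 19 apoptosis regulators, 17 were measured and 3 were lower (Bcl2, Bcl2l1 and Bcl2a1b), with a median of -0.35. Of the recirculating and effector Treg list, 10 genes were measured and 3 were lower (Ccr6, Cd44 and Ahnak), with a median of -0.35.

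Tcf7 and Satb1 took the opposite direction. Tcf7, encoding the T cell identity factor TCF-1, stood at 726 CPM in Cgas KO and 679 in WT, against 341 and 307 in Cgas KO and WT Foxp3+ Il2ra+ cells (log2 ratios 1.09 and 1.14 in Cgas KO and WT). Satb1, a chromatin organizer that acts on the Foxp3 locus, stood at 1401 CPM in Cgas KO and 1302 in WT, against 806 and 779. With Smad3, a TGF-beta signal transducer, they were the 3 genes of 22 in the list of Foxp3 locus regulators that were higher, while Rel was lower and the list's median was 0.27. Of 14 measured semi-mature thymocyte genes, 3 were higher (Cd24a, Ccr9 and Sox4), 0 were lower and the median was 0.24. Ccr9, a chemokine receptor of immature thymocytes, stood at 117 CPM in Cgas KO and 109 in WT, against 52.2 and 31.5.

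Late maturation and egress genes were divided, with Ly6a higher, H2-Q7 lower and a median of 0.01 over 20 genes. The CTCF and cohesin list had 0 of 14 genes called and a median of 0.21, and Ctcf, the gene of the DNA loop anchor in the study's title, stood at 154 CPM in Cgas KO and 153 in WT, against 130.4 and 134 in Cgas KO and WT Foxp3+ Il2ra+ cells. The cGAS-STING list had 0 of 8 measured genes called and a median of 0.08. Of 38 measured interferon-stimulated genes, 3 were higher (Oasl2, Rsad2 and Cmpk2), 1 was lower (Gbp3) and the median was 0.22. Of 6 measured helper and effector genes, Cd40lg was higher and Ccl5 lower, with a median of -0.19.

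Cell cycle genes were higher in these sums, in 10 of 16 genes with a median log2 ratio of 1.04, but through few cells. Mki67, a proliferation marker, stood at 68.4 CPM in Cgas KO and 64.9 in WT, against 24.1 and 13.5 in Cgas KO and WT Foxp3+ Il2ra+ cells, and its UMIs lay in 14 Cgas KO and 12 WT cells. With barcodes thinned to 2000 UMIs and classes assigned again, the median was -0.20 over the 6 genes of the list still measured, and Mki67 stood at -0.47. At least 5 cell cycle UMIs at 2000 UMIs per barcode were found in 15.0% of Cgas KO and 11.9% of WT Foxp3+ Il2ra- cells, in 5.49% and 9.79% of Cgas KO and WT Foxp3+ Il2ra+ cells, and in 17.4% and 17.7% of Cgas KO and WT Foxp3- Il2ra- cells.

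Ranked by the smaller of both libraries' ratios, Lrrc32 led the lower genes. Mbnl3, a splicing regulator gene, came next at 36.3 CPM in Cgas KO and 51.3 in WT, against 303 and 221 in Cgas KO and WT Foxp3+ Il2ra+ cells. It was followed by Coro2a, a coronin family gene, at 22.8 CPM in Cgas KO and 36.4 in WT against 189 and 155, by Hdac9, a histone deacetylase gene, and by Lta, the gene of the cytokine lymphotoxin alpha. Gpr83, Il2rb, Mdfic, Xxylt1 and Tnfrsf4 completed the 10. Of the 10 leading higher genes, 7 belong to DNA replication, mitosis or histone supply (Rrm2, Pclaf, H2ac8, Ube2c, H3c13, Top2a and Mki67), and Rrm2, Pclaf, Ube2c, Top2a and Mki67 turned direction after thinning. The histone genes share sequence with other copies and are uncertain. The other three were Pde3b, a cyclic AMP phosphodiesterase gene, at log2 ratios of 1.69 in Cgas KO and 1.93 in WT, Sos1, a Ras activator gene, at 1.45 in each, and Tgfbr3, a TGF-beta co-receptor gene, at 1.40 and 1.41 in Cgas KO and WT.

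**Figure D3:**
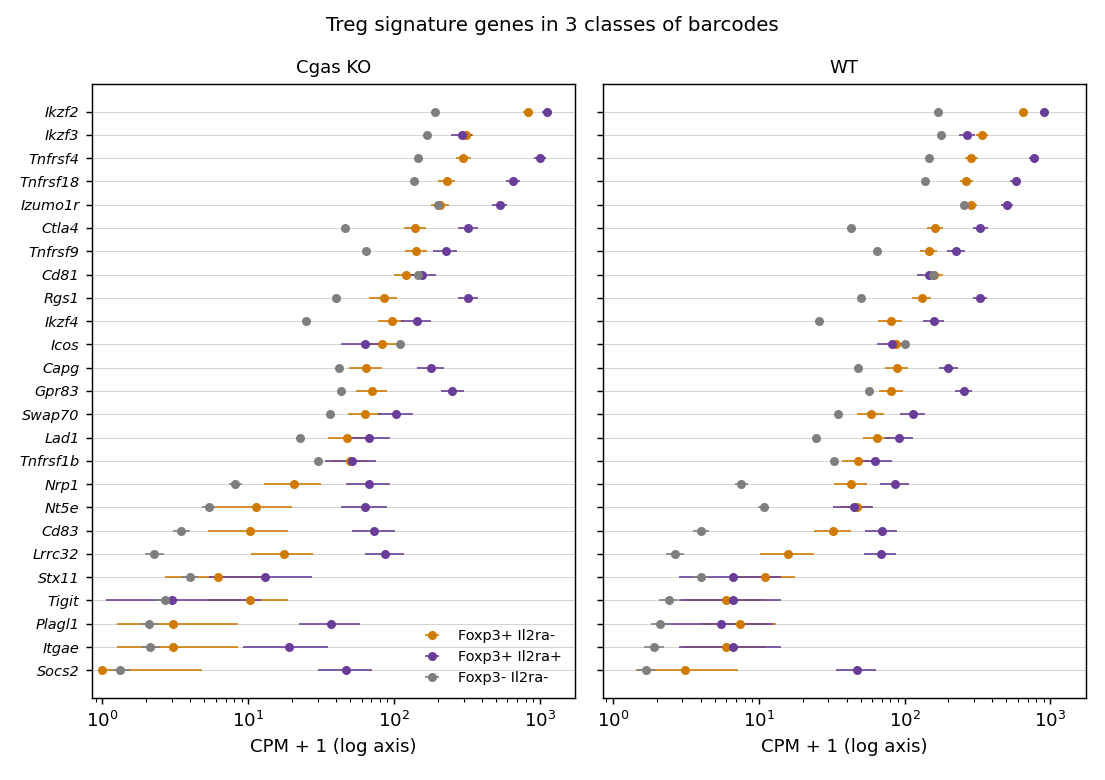
Level (CPM with 1 added, log axis) of the 25 Treg signature genes in Foxp3+ Il2ra-, Foxp3+ Il2ra+ and Foxp3- Il2ra- barcodes of Cgas KO and WT, with 95% exact Poisson intervals. Tnfrsf4 stands at 297 CPM in Cgas KO and 287 in WT Foxp3+ Il2ra- cells, between 1003 and 773 in Foxp3+ Il2ra+ cells and 145 and 147 in Foxp3- Il2ra- cells.

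Set against Foxp3- Il2ra- cells, the Foxp3+ Il2ra- cells had higher levels of 17 of 25 Treg signature genes and of 7 of 20 late maturation and egress genes. Of 7098 genes tested, 180 (2.54%) were higher and 66 (0.93%) lower in both libraries, or 180 and 64 without recurring TCR sets, and the median log2 ratio was -0.03. Over 15403 genes with at least 20 UMIs, 2.94% were higher, 3.54% were lower and the median was -0.06. None of the Treg signature was lower and its median log2 ratio was 1.09.

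Ikzf2 stood at 824 CPM in Cgas KO and 653 in WT Foxp3+ Il2ra- cells, against 191 and 168 in Cgas KO and WT Foxp3- Il2ra- cells, with log2 ratios of 2.11 in Cgas KO and 1.96 in WT. Ikzf4, encoding its family member Eos, stood at 95.4 CPM in Cgas KO and 79.1 in WT, against 23.9 and 24.7. Ctla4 stood at 139 CPM in Cgas KO and 161 in WT, against 45.4 and 42.0. All 3 were higher in both libraries. Izumo1r (folate receptor 4) was among the signature genes not called, at 207 CPM in Cgas KO and 284 in WT against 198.7 and 257, with log2 ratios of 0.06 and 0.14 in Cgas KO and WT.

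In single cells thinned to 2000 UMIs, Ikzf2 was detected in 50.3% of Cgas KO and 47.7% of WT Foxp3+ Il2ra- cells (58.8% and 56.0% unthinned), against 14.8% and 13.3% of Cgas KO and WT Foxp3- Il2ra- cells. CD8-type barcodes had it in 32.6% of Cgas KO and 26.1% of WT, above the Foxp3- Il2ra- cells and below the Foxp3+ Il2ra- cells. Tnfrsf4 was detected in 40.1% of Cgas KO and 32.5% of WT cells (52.9% and 56.4% unthinned), against 20.2% and 19.8% of Cgas KO and WT Foxp3- Il2ra- cells and 2.86% and 3.83% of the CD8-type barcodes. Ctla4 was detected in 24.6% of Cgas KO and 27.2% of WT cells (36.4% and 45.3% unthinned), against 729 of 9113 Cgas KO and 7.30% of WT Foxp3- Il2ra- cells, and 4.16% and 2.74% of Cgas KO and WT CD8-type barcodes.

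Of 13 TNF receptor genes, Tnfrsf18, Tnfrsf4, Tnfrsf9 and Traf1 were higher than in Foxp3- Il2ra- cells and the median was 0.38. These 4 genes were also the 4 that were lower than in Foxp3+ Il2ra+ cells. Tnfrsf9 (4-1BB) stood at 141 CPM in Cgas KO and 145 in WT, against 225 and 225 in Foxp3+ Il2ra+ and 63.1 and 64.0 in Foxp3- Il2ra- cells of Cgas KO and WT. Of 15 NF-kB genes, 1 was higher (Bcl3, an atypical inhibitor family member), with a median of 0.29.

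Of 18 measured IL-2 and STAT5 genes, 2 were higher, Il2rb and Cish, and the median was -0.08. Il2rb stood at 145 CPM in Cgas KO and 173 in WT, against 24.5 and 31.9 in Cgas KO and WT Foxp3- Il2ra- cells, and Cish at 68.4 in Cgas KO and 74.9 in WT, against 22.0 and 25.8. Of 24 TCR-induced genes, 3 were higher (the feedback genes Dusp4 and Spry1, and Tagap), 2 were lower (the transcription factor genes Egr2 and Irf4) and the median was -0.23.

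Of 20 late maturation and egress genes, 7 were higher, 0 were lower and the median was 0.44. S1pr1, the receptor for sphingosine 1-phosphate that takes thymocytes into blood, stood at 329.6 CPM in Cgas KO and 303 in WT, against 181 and 158 in Cgas KO and WT Foxp3- Il2ra- cells. Of 15 semi-mature genes, 4 were lower (Cd24a, Ccr9, Ccr4 and Itm2a), 0 were higher and the median was -0.12. Itm2a stood at 608 CPM in Cgas KO and 663 in WT, against 1080.3 and 1118.

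The remaining lists showed few calls against Foxp3- Il2ra- cells. None of the 22 Foxp3 locus regulators or the 14 CTCF and cohesin genes was called, with medians of -0.03 and -0.01, and none of 39 measured interferon-stimulated genes was, with a median of 0.09. The cGAS-STING list of 11 genes had a median of 0.11, with Aim2, a DNA sensor gene of the inflammasome, higher at 22.8 CPM in Cgas KO and 72.0 in WT, against 9.44 and 46.2. Trex1, which encodes a DNA exonuclease, was called lower only because it had no UMI in the Foxp3+ Il2ra- cells, with 0.631 and 0.668 CPM in Cgas KO and WT Foxp3- Il2ra- cells, below what 3 UMIs would give. Of 19 apoptosis regulators, Bcl2l1 was lower and the median was 0.04, and of 16 cell cycle genes, Mcm2 was lower and the median was -0.08.

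Markers of recirculating Treg cells, which return to the thymus from the periphery, gave 15 measured genes with 2 higher (Ccr6 and Prdm1), 1 lower (Ccr8) and a median of -0.27. Of the 8 with at least 100 UMIs, 0 were higher and 1 was lower. Ccr6 was low in the Foxp3+ Il2ra- cells, at 11.4 CPM in Cgas KO and 18.5 in WT, against 52.2 and 46.1 in Foxp3+ Il2ra+ cells and 1.02 and 0.968 in Foxp3- Il2ra- cells of Cgas KO and WT. Of 15 helper and effector genes, 2 were higher (the inhibitory receptor genes Pdcd1 and Lag3), 4 were lower (Maf, Il4, Cd40lg and Gzma) and the median was -0.17, but 7 of the 15 had a class at 0 UMIs. With such genes set to 3 UMIs, this median was 0.49, that of the recirculating list 0.20 and that of the semi-mature list 0.03, so the sign of these 3 medians rests on genes near 0.

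Among the 10 genes that led the higher side were Hopx, a homeodomain-only cofactor gene, at 47.7 CPM in Cgas KO and 119 in WT against 3.33 and 5.28 in Cgas KO and WT Foxp3- Il2ra- cells, and Coro2a, at 22.8 and 36.4 against 1.70 and 2.90. Gsta4, a glutathione transferase gene, stood at 58.0 CPM in Cgas KO and 79.1 in WT, against 7.77 and 11.96. Myo1e, Il2rb, Rln3, Arhgap24, Dusp4 and Hdac9 followed. Penk, the proenkephalin gene, was also in the 10, but its UMIs lay in 1 Cgas KO and 3 WT cells. On the lower side were Asb2, Rab11fip4, Ckb, Acvrl1, Cdca7, Smo, Zcchc12, Irf4 and Nedd4, with Ckb, the brain-type creatine kinase gene, at 121 CPM in Cgas KO and 103 in WT, against 257 and 271. Hbb-bs, a haemoglobin gene, completed them, and without recurring TCR sets its mean log2 ratio was -0.33 rather than -2.49. Its level in barcodes with 20 to fewer than 200 UMIs was 132 CPM in Cgas KO and 81.0 in WT.

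**Figure D4:**
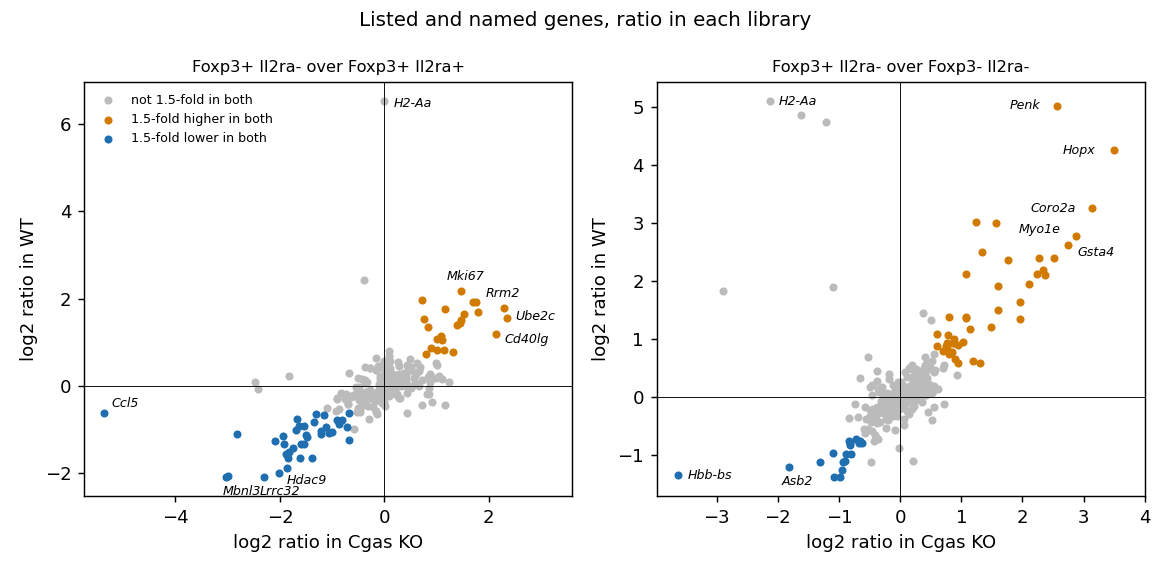
Log2 ratio in Cgas KO (x axis) and in WT (y axis) of the listed and named genes, 1 point per gene, for Foxp3+ Il2ra- over Foxp3+ Il2ra+ cells (left) and over Foxp3- Il2ra- cells (right), with genes at least 1.5-fold apart in both libraries in colour. Lrrc32 lies at -2.31 in Cgas KO and -2.10 in WT on the left, and Hopx at 3.49 in Cgas KO and 4.26 in WT on the right.

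Most genes that separated the comparison classes were found at an intermediate level in Foxp3+ Il2ra- cells. Of 7302 genes tested, 418 (5.72%) were higher and 415 (5.68%) lower in Foxp3+ Il2ra+ than in Foxp3- Il2ra- cells in both libraries. For 558 of these 833 (67.0%) the level in Foxp3+ Il2ra- cells lay between both classes in both libraries, or for 552 without recurring TCR sets. Of the 418 genes higher in Foxp3+ Il2ra+ cells, 306 (73.2%) were intermediate, and 164 were nearer the Foxp3+ Il2ra+ and 122 nearer the Foxp3- Il2ra- level in both libraries. Of the 415 genes lower there, 252 (60.7%) were intermediate, and 43 were nearer the Foxp3+ Il2ra+ and 238 nearer the Foxp3- Il2ra- level. The median position on the way from the Foxp3- Il2ra- to the Foxp3+ Il2ra+ level was 0.499 in Cgas KO and 0.562 in WT for the first set, and 0.275 in Cgas KO and 0.339 in WT for the second. In these sums, genes high in Foxp3+ Il2ra+ cells thus had a median position near midway, and genes low there were less far along. The genes were chosen on the Foxp3+ Il2ra+ level itself, summed over only 91 Cgas KO and 143 WT cells. This choice favours genes that counting error moved away from the Foxp3- Il2ra- level, which by itself places other cells in between or nearer that level. The part of this in the shares and positions was not tested, and no background share is given. Sums over cells do not show whether each cell was intermediate.

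Between genotypes, Foxp3+ Il2ra- cells differed most at a block of chromosome 1 genes that also differed in Foxp3- Il2ra- cells. Of 4021 genes tested, 61 (1.52%) were at least 1.5-fold higher and 61 (1.52%) at least 1.5-fold lower in Cgas KO cells. Without recurring TCR sets the counts were 65 and 66. With a ratio of 2 they were 5 and 11, and with barcodes thinned to 2000 UMIs 23 and 20. In Foxp3- Il2ra- cells, whose sums are far deeper, 12 of 6705 genes (0.179%) were higher and 21 (0.313%) lower in Cgas KO. Of those 12, 7 were tested in Foxp3+ Il2ra- cells and all 7 were higher there too (Btaf1, Hpcal1, Ifi206, Ifi208, Ifi209, Ifi213 and Slamf6), and of the 21, 10 were tested and 8 were lower there too. Conversely, all 61 higher and 59 of the 61 lower genes of the Foxp3+ Il2ra- cells were tested in Foxp3- Il2ra- cells. Only 7 and 8 of these were called there. The Foxp3+ Il2ra- cells shared 5 higher and 7 lower genes with the Foxp3+ Il2ra+ cells, where 37 of 2364 genes (1.57%) were higher and 44 (1.86%) lower. Of the 61 higher and 61 lower genes of the Foxp3+ Il2ra- cells, 27 and 18 were tested in Foxp3+ Il2ra+ cells.

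Ifi213 had 109 UMIs in Cgas KO and 0 in WT Foxp3+ Il2ra- cells, which was at least 52.8-fold higher in Cgas KO against a floor of 3 UMIs over the WT cells. Ifi206 stood at 123 CPM in Cgas KO and 8.56 in WT, and Ifi209 at 143 in Cgas KO and 67.7 in WT. All belong to the Ifi200 family of interferon-inducible genes with DNA-binding domains, whose near-identical copies make single-gene counts uncertain. Slamf6, a SLAM family adhesion receptor gene, stood at 104 CPM in Cgas KO and 38.5 in WT. On the lower side, Aim2 stood at 22.8 CPM in Cgas KO and 72.0 in WT, and Ifi214 at 43.5 in Cgas KO and 89.1 in WT. These 6 genes lie on chromosome 1 between 171917458 and 173647928 (RefSeq, GRCm38.p6), a span of 1.73 Mb, and make up 6 of the 20 leading genes. Their log2 ratios were of the same sign in all 3 classes.

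Other leading genes differed less evenly. Hopx stood at 47.7 CPM (34.9 to 63.6) in Cgas KO and 119 (102 to 139) in WT Foxp3+ Il2ra- cells, with log2 ratios of -1.302 here, -0.39 in Foxp3+ Il2ra+ and -0.54 in Foxp3- Il2ra- cells. Id2, encoding an inhibitor of E proteins, stood at 57.0 CPM in Cgas KO and 111 in WT, and H2-Q7, a nonclassical MHC class I gene, at 61.2 in Cgas KO and 129 in WT. Tubb2a and Tubb2b, beta tubulin genes with similar sequence, stood at 161 and 92.2 CPM in Cgas KO and 80.6 and 44.2 CPM in WT, and had log2 ratios of -0.06 and 0.04 in Foxp3+ Il2ra+ cells. After thinning and new class assignment, the log2 ratio was -0.55 for Hopx, -0.13 for Id2, -0.08 for Trafd1, 0.34 for Arhgap20, 0.40 for Ifi209 and 0.53 for both tubulin genes, each under 1.5-fold, and -1.43 for H2-Q7. Btaf1, Frat2 and Stxbp3 were the other higher genes, and Dynlt1b, with near-identical copies, another lower one.

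H2-Aa and Cd74, genes of MHC class II presentation, led the lower side through 1 WT barcode. All 128 H2-Aa UMIs of the WT cells lay in a barcode that also had 262 Cd74 and 27 Cd79a UMIs. With barcodes holding UMIs of other cell types left out, the log2 ratio was 0.00 for H2-Aa, -0.18 for Cd74 and -0.76 for Ly6a, a further lower gene. The genotype counts were then 68 higher and 59 lower.

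Of 20 measured Treg signature genes, 4 were lower in Cgas KO than in WT Foxp3+ Il2ra- cells. Of the 16 with at least 100 UMIs, 1 was lower. Foxp3 itself, a rule gene, stood at 279 CPM in Cgas KO and 274 in WT. The 4 lower genes were Nt5e, Nrp1, Rgs1 and Cd83, and 0 were higher. The median log2 ratio was -0.20, and -0.16 over the 16 genes with at least 100 UMIs. Over all 8757 genes with at least 20 UMIs, 6.51% were higher, 6.63% were lower and the median was 0.00. Nt5e, encoding the ectonucleotidase CD73, stood at 10.4 CPM (4.97 to 19.1) in Cgas KO and 46.3 (35.8 to 59.1) in WT. Rgs1, a regulator of G protein signalling, stood at 84.0 CPM in Cgas KO and 129.8 in WT. Ikzf2 (824 CPM in Cgas KO and 653 in WT), Ctla4 (139 and 161) and Tnfrsf18 (230.1 and 264) were within 1.5-fold.

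No gene of the TNF receptor, NF-kB or Foxp3 locus lists was called between genotypes, with medians of 0.05, 0.14 and 0.08. Of the other lists, IL-2 and STAT5 had 1 of 14 genes higher (Pim1, a survival kinase gene, at 78.8 CPM in Cgas KO and 52.0 in WT) and a median of 0.00. TCR-induced genes had 1 of 21 lower (Fosb) and a median of -0.04. CTCF and cohesin had 1 of 14 higher (Hdac8, which deacetylates cohesin) and a median of 0.13, with Ctcf at 154 CPM in Cgas KO and 153 in WT. These shares were near the background or below it.

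The cGAS-STING list had 2 of 7 measured genes lower, Aim2 and Sting1, and a median of -0.38. Sting1, the adaptor downstream of cGAS, stood at 56.0 CPM (42.0 to 73.0) in Cgas KO and 93.4 (78.1 to 111) in WT, with log2 ratios of -0.73 here, -0.06 in Foxp3+ Il2ra+ and -0.16 in Foxp3- Il2ra- cells. Of 35 measured interferon-stimulated genes, 2 were higher (Oasl1 and Rsad2), 4 were lower (Isg20, Oas1a, Oasl2 and Oas3) and the median was -0.11. Of the 23 with at least 100 UMIs, 0 were higher and 1 was lower. Over all genes with at least 20 UMIs, 6.51% were higher and 6.63% lower. The median of the interferon list was -0.35 in Foxp3+ Il2ra+ cells, where 7.71% of all genes were higher and 8.57% lower. It was -0.17 in Foxp3- Il2ra- cells, where 0.411% were higher and 0.522% lower.

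Of 17 measured apoptosis regulators, 3 were lower (Bad, Pmaip1 and Bcl2a1d), 0 were higher and the median was -0.33, against 0.07 in Foxp3+ Il2ra+ and -0.04 in Foxp3- Il2ra- cells. Of the 7 regulators with at least 100 UMIs, 0 were lower and 0 were higher. Late maturation had 2 of 20 genes lower (H2-Q7 and Ly6a) and a median of -0.08. The semi-mature list had 1 of 14 higher, Ccr7, at 1054 CPM (990.3 to 1121) in Cgas KO and 664 (622 to 709) in WT, with log2 ratios of 0.66 here, -0.51 in Foxp3+ Il2ra+ and 0.22 in Foxp3- Il2ra- cells, and a median of 0.11. Recirculating genes had 2 of 10 lower (Ccr6 and Ahnak) and a median of -0.17, cell cycle genes 3 of 16 higher (Mcm5, Rrm2 and Ccnb1) and a median of 0.20 (-0.26 over 4 genes after thinning and 0.85 over 10 genes with at least 2 Foxp3 UMIs), and helper genes 1 of 6 lower (Ccl5) and a median of 0.15. Ccr7 encodes the marker on which the cells were sorted.

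**Figure D5:**
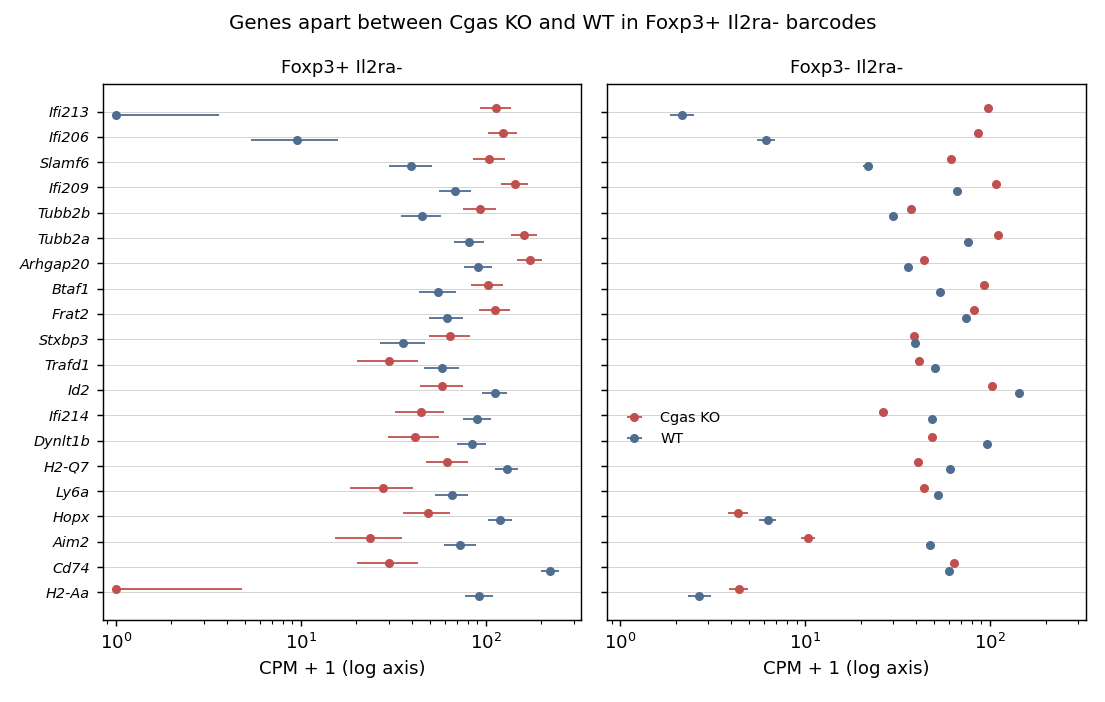
Level (CPM with 1 added, log axis) of the 20 leading genes between genotypes in Foxp3+ Il2ra- cells (left) and Foxp3- Il2ra- cells (right) of the Cgas KO and WT libraries, with 95% exact Poisson intervals and 1 library per genotype. Aim2 stands at 22.8 CPM in Cgas KO and 72.0 in WT on the left and at 9.44 in Cgas KO and 46.2 in WT on the right, while the H2-Aa level of the WT Foxp3+ Il2ra- cells comes from 1 barcode.

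Both TCR chains were recovered in 152 of 187 Cgas KO (81.3%, 74.9 to 86.6) and 188 of 243 WT (77.4%, 71.6 to 82.5) Foxp3+ Il2ra- cells. Foxp3+ Il2ra+ cells had both in 69.2% of Cgas KO and 73.4% of WT, and Foxp3- Il2ra- cells in 85.9% of Cgas KO and 86.5% of WT. No beta chain was found in 9.63% of the Cgas KO and 10.3% of the WT cells. The recovery of both chains lay between those of the comparison classes in both libraries, but intervals overlapped. Those of Foxp3+ Il2ra+ cells were 58.7 to 78.5 in Cgas KO and 65.4 to 80.5 in WT, each overlapping that of the Foxp3+ Il2ra- cells. Those of Foxp3- Il2ra- cells were 85.1 to 86.6 in Cgas KO, which overlapped, and 85.7 to 87.3 in WT, which did not. Without recurring sets both chains were found in 79.9% of Cgas KO and 77.3% of WT cells.

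More than 1 beta chain, which a doublet would give, was found in 27 Cgas KO cells (14.4%, 9.74 to 20.3) and 16 WT cells (6.58%, 3.81 to 10.5). Foxp3+ Il2ra+ cells had this in 8.79% of Cgas KO and 13.3% of WT, and Foxp3- Il2ra- cells in 7.75% of Cgas KO and 7.15% of WT. The Cgas KO share was above that of Foxp3- Il2ra- cells, and the part of doublets in this was not tested. With these barcodes left out, the ratio of Foxp3+ Il2ra- shares was 0.638. More than 1 alpha chain was found in 17.6% of Cgas KO and 11.1% of WT cells.

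The receptors were diverse. Foxp3+ Il2ra- cells used 21 TRBV segments in Cgas KO and 22 in WT. The beta CDR3 had a mean length of 13.9 ± 1.35 residues in Cgas KO (SD over 169 cells) and 13.7 ± 1.37 in WT (SD over 218 cells), against 13.8 in Cgas KO and 13.9 in WT Foxp3- Il2ra- cells. The mean hydropathy of its centre was -1.12 ± 1.06 in Cgas KO and -1.26 ± 1.03 in WT, against -1.17 and -1.15 in Cgas KO and WT Foxp3- Il2ra- cells, on a scale where higher values are more hydrophobic. TRAJ1 to TRAJ20, at the far end of the locus reached by later rearrangements, made up 22.1% (15.8 to 29.5) of Cgas KO and 28.2% (21.9 to 35.2) of WT cells, against 25.9% and 24.99% of Cgas KO and WT Foxp3- Il2ra- cells. TRBV16 made up 11.2% of Cgas KO (19 of 169) and 4.13% of WT (9 of 218) cells, against 5.24% and 5.65% of Foxp3- Il2ra- cells. TRBV5 made up 7.10% of Cgas KO and 13.3% (9.09 to 18.5) of WT cells, against 694 of 8562 in Cgas KO and 580 of 7251 in WT Foxp3- Il2ra- cells. These were 2 of many segments looked at, and they did not move alike in both libraries.

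Of the markers of other cell types, those of dendritic and B cells had the most UMIs in Foxp3+ Il2ra- cells. The macrophage and monocyte list had 4 UMIs in Cgas KO and 1 in WT, the NK and NKT list 0 in Cgas KO and 9, all in 1 cell, in WT, the gamma-delta list 5 in Cgas KO and 12 in WT, the erythroid list 8 in Cgas KO and 4 in WT, and the thymic epithelium list 13 in Cgas KO and 15 in WT. The 7 B cell genes had 51 UMIs in Cgas KO, with Ms4a1, Iglc2 and Pax5 among those at 0, and 125 in WT, 52 of them in 1 cell. The 10 dendritic cell genes, which include Ccr9 and Cd74, had 224 UMIs in Cgas KO, with H2-Aa, H2-Ab1, H2-Eb1 and Itgax at 0, and 899 in WT, 559 of them in 1 cell. The dendritic cell UMIs lay in 106 Cgas KO and 135 WT cells and summed to 232 CPM in Cgas KO and 641 in WT, against 350.4 and 329 in Cgas KO and WT Foxp3- Il2ra- cells. The B cell UMIs lay in 38 Cgas KO and 49 WT cells and summed to 52.9 CPM in Cgas KO and 89.1 in WT, against 66.7 and 49.0 in Cgas KO and WT Foxp3- Il2ra- cells. Their part in the results was not tested beyond the values given without barcodes of other cell types. Of 6 CD8 lineage genes outside the rule, 5 were detected with 43 UMIs in Cgas KO and 6 with 117 in WT, 33 of these in 1 cell. Of 6 double-positive genes outside the rule, 4 were detected in each library with 17 UMIs in Cgas KO and 29 in WT, and Rag2 and Ptcra were at 0.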

How the data were processed

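Thymocytes of Cd4Cre Cgas fl/fl (Cgas KO) and Cd4Cre (WT) mice were sorted as CD4+CCR7+ cells and run through 10x Genomics 3′ gene expression and TCR libraries, per the labels' protocols, with 1 library of each kind per genotype. The deposited matrices hold raw UMI counts per gene and barcode, which the authors produced with Cell Ranger (version 8.0.1 per the file headers, 7.0 per the submitters' processing notes, which also list mm10 and Seurat 5.1.0). The matrices include empty droplets, 586687 barcodes in Cgas KO and 588428 in WT in all, and the TCR files list contigs with their UMI counts as deposited.

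Barcodes with at least 2000 UMIs, 500 genes and at most 10% mt- UMIs were kept. The Foxp3+ Il2ra- cells and the gene lists were chosen with earlier results of these data known. Counts were summed per class and library (964823 UMIs in Cgas KO and 1402625 in WT for the Foxp3+ Il2ra- cells), scaled to CPM and compared as log2 ratios after adding 1 CPM. A gene was called at 1.5-fold, in both libraries for classes, among genes with at least 100 UMIs and 20 CPM. Within gene lists, the same ratio was applied to genes with at least 20 UMIs and no CPM minimum. With 1 library per genotype no test was made, and exact Poisson and Clopper-Pearson intervals (95%) cover counting error only. Shares of cells with a UMI were read after thinning each barcode to 2000 UMIs. No doublet caller was run. Doublets were looked at through barcodes with 2 or more beta chains. The genes named were the 10 highest and 10 lowest per comparison by fold, without TCR, immunoglobulin, mitochondrial, ribosomal, Xist, Tsix, Y-linked and unnamed genes and the rule genes, up to 4 per list, and Foxp3, Il2ra, Cgas, Sting1, Ctcf, Ikzf2, Ctla4, Cd4 and Ccr7, and other genes were named as the called genes of a list. TCR sequences were taken from the deposited contigs and joined to expression by barcode. Gene positions are from RefSeq (GRCm38.p6).

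Alternatives were UMI minimums of 1000 and 3000, a mitochondrial limit of 5%, thinning before classes were assigned, at least 2 Foxp3 UMIs, leaving out barcodes with 2 or more beta chains or UMIs of other cell types, TMM factors (edgeR 4.0.16), 5 CPM added, a ratio of 2, a minimum of 20 UMIs, and comparison classes without the Cd8a, Cd8b1 and Rag1 filter. Leaving out recurring TCR sets was chosen after seeing the data. Python 3.11.15 with scipy 1.17.1, numpy 2.4.6, matplotlib 3.10.9 and pandas 2.3.3 was used beside R 4.3.3. The gene comparison was also run on simulated sums that held counting error only. Such sums cannot show how differences between cells or single barcodes affect the calls.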

Additional observations from a re-analysis of the deposited data

Results flagged for a closer look

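Foxp3 was found in data outside the comparisons. In barcodes with 20 to fewer than 200 UMIs, which hold mostly free RNA, Foxp3 stood at 11.7 CPM (9.48 to 14.4) in Cgas KO and 14.1 CPM (11.5 to 17.1) in WT, above the limit that a count of 0 allows. It is a signal no comparison used, and it bears on cells with a single Foxp3 UMI, which were 77.5% of the Cgas KO and 67.9% of the WT Foxp3+ Il2ra- cells. Over all kept barcodes Foxp3 stood at 8.48 CPM in Cgas KO and 13.1 in WT.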

How the results depend on the processing

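No paired analysis was possible because each genotype had 1 library. Among the results that answer a comparison, 318 of 384 values under the alternatives stayed the same and 66 moved. The same meant within an interval of the main value or, for gene counts, within 1.5 times. The cause of these moves was not tested, except that thinning, a higher Foxp3 minimum and a ratio of 2 leave fewer UMIs, cells or genes by construction. Yet gene counts against Foxp3- Il2ra- cells rose under thinning and under the higher Foxp3 minimum, from 180 higher and 66 lower. With barcodes thinned to 2000 UMIs before classes were assigned, Foxp3+ Il2ra- cells were 0.862% of Cgas KO and 1.45% of WT barcodes and 72.9% and 71.5% of Foxp3+ barcodes. Genes higher and lower were then 35 and 26 against Foxp3+ Il2ra+ cells, 381 and 350 against Foxp3- Il2ra- cells and 23 and 20 between genotypes. Against Foxp3+ Il2ra+ cells, Rrm2 (-1.37), Pclaf (-2.59), Ube2c (-0.21), Top2a (-0.92) and Mki67 (-0.47) reversed on the log2 scale. With at least 2 Foxp3 UMIs the shares were 0.292% of Cgas KO and 0.603% of WT barcodes (ratio 0.484) and 44.7% and 46.2% of Foxp3+ barcodes. Genes numbered 47 and 48, 395 and 381 in the class comparisons, and 22 were higher between genotypes. Lifting the Cd8a, Cd8b1 and Rag1 filter from the comparison classes left the Foxp3+ Il2ra- cells filtered. These filtered cells were then 187 of 313 Cgas KO (59.7%) and 243 of 435 WT (55.9%) barcodes of both Foxp3+ classes. This lowers the share by construction, since the 65 Cgas KO and 79 WT Foxp3+ Il2ra- barcodes that failed the filter stayed out. A minimum of 20 UMIs gave 444 and 277, 453 and 546 and, between genotypes, 570 and 581 genes, with 908 intermediate. With 5 CPM added 43 genes were lower than in Foxp3- Il2ra- cells. A ratio of 2 gave 28 and 36, 73 and 5 and, between genotypes, 5 and 11 genes, with 239 intermediate. At least 5 Treg signature UMIs were found in 23.5% of Cgas KO and 27.6% of WT cells at 1000 UMIs per barcode, in 37.97% and 48.6% without the TNF receptor genes, and in 71.4% and 80.8% with at least 2 Foxp3 UMIs. List medians between genotypes moved under thinning to -0.21 (TNF receptor), -0.016 (NF-kB), -0.10 (apoptosis) and -0.26 (cell cycle), and with at least 2 Foxp3 UMIs to -0.27 (NF-kB), -0.41 (interferon), -0.77 (apoptosis) and 0.85 (cell cycle). Against Foxp3+ Il2ra+ cells they moved under thinning to 0.39 (CTCF and cohesin), -0.092 (interferon) and -0.20 (cell cycle). Against Foxp3- Il2ra- cells they moved under thinning to -0.11 (interferon) and -1.44 (cell cycle), and with at least 2 Foxp3 UMIs to 0.36 (cGAS-STING), 0.19 (interferon), 0.30 (apoptosis) and -0.64 (cell cycle). With contigs of at least 3 UMIs, both chains were found in 66.3% of Cgas KO and 61.7% of WT cells and 2 or more alpha chains in 11.8% and 5.76%. With exactly 1 beta chain both were found in 88.0% of Cgas KO and 85.1% of WT cells. Leaving out recurring TCR sets moved 0 of these results. Of single named genes, 551 of 640 values stayed within a limit set from counting error alone, 84 moved and 5 reversed. With 187 Cgas KO and 243 WT cells, a gene under 20 CPM rested on fewer than 20 UMIs in Cgas KO.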
